A study of Homo sapiens with 33 samples.

Results

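A set of 9 genes of the NRF2 antioxidant response is described here across the RNA libraries of HepG2 cells, an established human liver cancer line. They were taken as a list: NFE2L2, KEAP1, NQO1, HMOX1, GCLC, GCLM, TXNRD1, SRXN1 and SLC7A11, which are 9 of the 78932 gene identifiers in each file. The study sorted cells by their place in the cell cycle and profiled both RNA and replication timing. RNA was measured in 12 libraries of 6 sorted fractions, in cell-cycle order G1, S1, S2, S3, S4 and G2, each with a replicate 2 and a replicate 3, and in 3 libraries of unsorted bulk cells. No group carries a drug, a deletion or a transgene in the labels, so nothing in the design switches NRF2 on or off. Per the labels' protocols, total RNA of the sorted cells went into a stranded kit for very small inputs, whereas bulk cells were prepared with a stranded kit for mRNA. Nuclear RNA is given as the molecule of all RNA libraries. Since the labels do not say that replicates are separate cultures, a p-value here reflects the spread among libraries, and that spread may be technical.

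NRF2, the protein made from NFE2L2, is a transcription factor that pairs with small MAF proteins and binds the antioxidant response element. In unstressed cells KEAP1 holds NRF2 and hands it to a ubiquitin ligase for destruction, and oxidants or electrophiles that modify KEAP1 let NRF2 accumulate. Its targets make glutathione, recharge thioredoxin and peroxiredoxin, reduce quinones and degrade heme, and the liver uses them to handle drugs and reactive oxygen. NRF2 is controlled mainly through the stability of its protein, which RNA levels do not show.

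Values are given as TPM, a level per unit of gene length within a library, so a comparison between genes depends on the length used for each. Those lengths, recovered from the steps between values, ran from 2306 bases (HMOX1) to 14975 (NFE2L2). Differences are given as differences of log2(TPM + 1), which understate the change of low genes. Each library held between 6129026 and 18485359 recovered reads in the sorted set, S4 replicate 3 being the deepest, and between 22340963 and 24423744 in bulk. Protein-coding genes took 11.2% to 15.5% of the TPM in sorted libraries and 76.7% to 77.6% in bulk, so a sorted and a bulk TPM cannot be set side by side without rescaling. Among the sorted libraries the share was largest in G1 replicate 2 (15.5%) and G2 replicate 3 (15.4%). Which fraction of a gene is highest or lowest can therefore change once TPM is rescaled to a common sum over protein-coding genes. The liver identity of the cells was visible in 15 of 16 hepatocyte markers that reached 1 TPM in a sorted library, among them ALB at 3052 TPM on average. APOB, an apolipoprotein that liver cells secrete, was the exception at 0.0506 to 0.318 TPM in the sorted libraries and 0.0859 TPM on average in bulk, so a value near 0 in these files is not by itself a sign of absent RNA. Of the markers of other cell types, 2 of 10 fibroblast and stellate genes, 2 of 10 endothelial genes and 3 of 11 leukocyte genes reached 1 TPM in a sorted library. The leukocyte gene LYZ stood at 174 to 441 TPM, while PTPRC, the pan-leukocyte antigen, stayed at or below 0.0440 TPM and CD3E, a T-cell receptor subunit, at or below 0.418 TPM.

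The 9 genes spanned a wide range of levels, in an order that depends on the gene lengths used. NFE2L2 (14975 bases) held 5178 to 6118 reads per bulk library and KEAP1 (3573 bases) 1524 to 2007, yet NFE2L2 had the lower TPM. In the 12 sorted libraries NQO1 led at 37.9 ± 5.19 TPM (SD, n = 12, as for the other means here), followed by TXNRD1 at 18.1 ± 3.66 and KEAP1 at 11.7 ± 1.65. GCLC at 8.74 ± 1.80 and NFE2L2 at 8.70 ± 1.99 could not be ordered, and SLC7A11 at 6.80 ± 3.17 had the largest spread for its level among those 6. HMOX1 at 3.18 ± 1.37 and GCLM at 3.10 ± 0.819 did not differ beyond their spread, and SRXN1 was lowest at 0.973 ± 0.260. The bulk libraries kept NQO1 (1287 ± 7.45 TPM, SD, n = 3) and TXNRD1 (182 ± 7.79) at the top and SRXN1 (0.0672 ± 0.0652) at the bottom. Their order differed in 1 place above all: HMOX1, the seventh of 9 in the sorted libraries, was the third in bulk at 115 ± 8.17 TPM. In GRCh38.p14 the genes the results turn on lie on chromosome 22 from 35381096 to 35394207 (HMOX1), chromosome 1 from 93885199 to 93909430 (GCLM), chromosome 4 from 138164097 to 138242349 (SLC7A11) and chromosome 16 from 69709401 to 69726560 (NQO1).

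**Figure D1:**
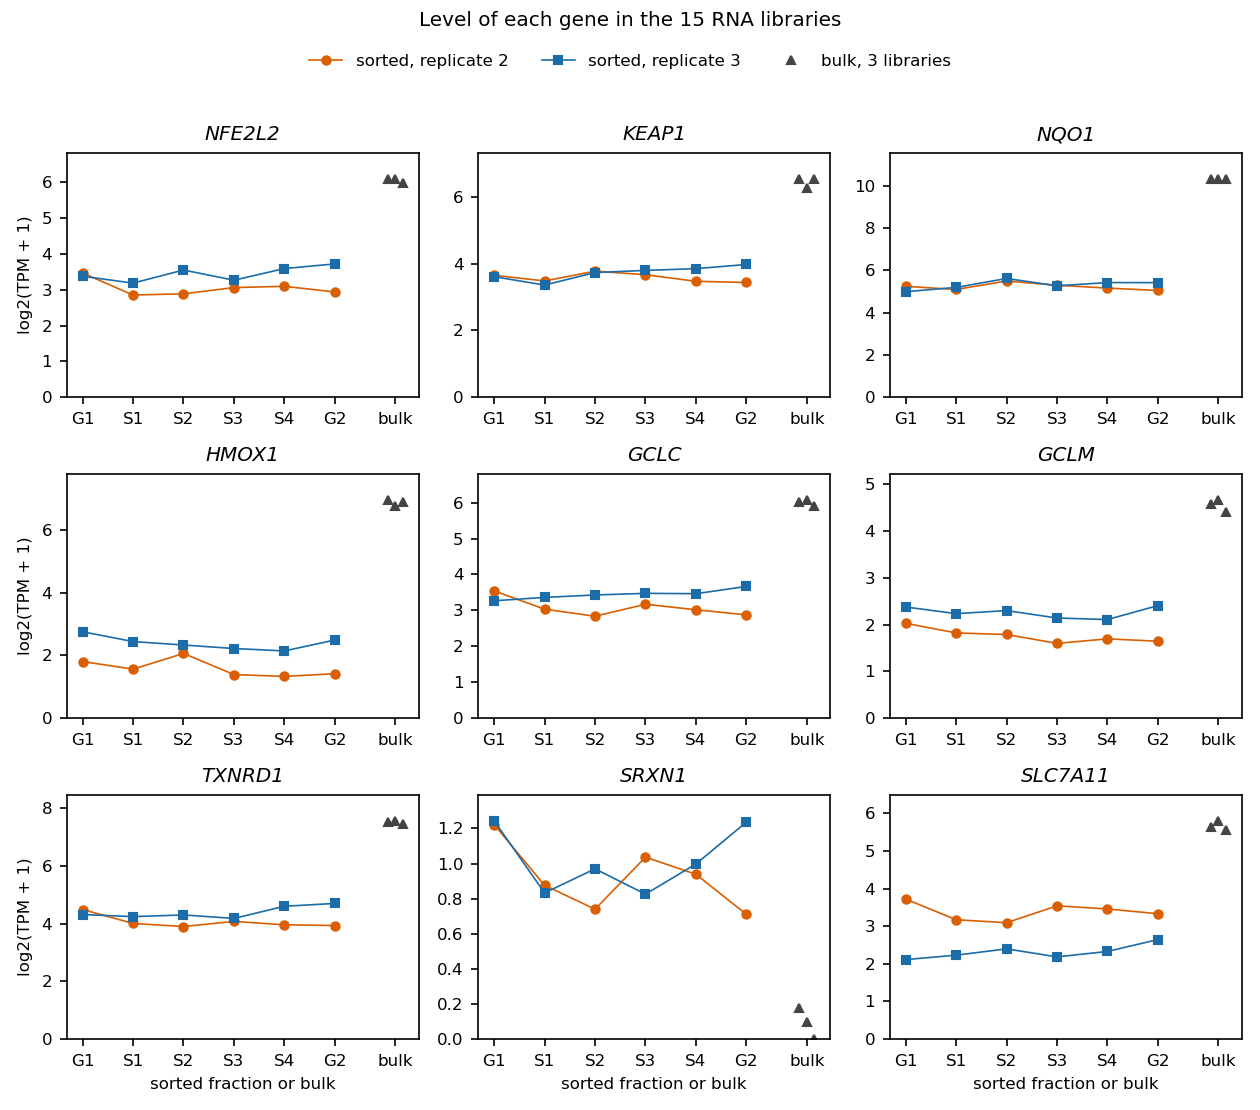
Level of each of the 9 genes as log2(TPM + 1) in every RNA library, by sorted fraction (G1 to G2) and in bulk, with circles for sorted replicate 2, squares for sorted replicate 3 and triangles for the 3 bulk libraries. The lines of replicates 2 and 3 never meet for HMOX1, GCLM and SLC7A11, and of these SLC7A11 alone has replicate 2 on top, while bulk TPM lies above sorted TPM for all genes but SRXN1.

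Promoter windows are shown for the genes whose start regions held the core letters of the antioxidant response element, TGACNNNGC, searched on both strands and as the only motif. The windows run from 250 bases before to 50 after an annotated start and come from RefSeq (GRCh38.p14); 7 of the 9 genes had at least 1 entry, with 10 windows in all. The core was found in 4 of these windows, in GCLM, KEAP1 and TXNRD1, against 13.3% of all 35116 windows of 300 bases. A match of this kind is a description of the letters and not a bound site. The sequences below read 5′ to 3′ on the strand of the gene, with the matches in capitals, for GCLM (chr1:93909381-93909680, minus strand), for the KEAP1 start with matches (chr19:10502722-10503021, minus strand) and for the upstream TXNRD1 start (chr12:104215529-104215828, plus strand).
GCLM: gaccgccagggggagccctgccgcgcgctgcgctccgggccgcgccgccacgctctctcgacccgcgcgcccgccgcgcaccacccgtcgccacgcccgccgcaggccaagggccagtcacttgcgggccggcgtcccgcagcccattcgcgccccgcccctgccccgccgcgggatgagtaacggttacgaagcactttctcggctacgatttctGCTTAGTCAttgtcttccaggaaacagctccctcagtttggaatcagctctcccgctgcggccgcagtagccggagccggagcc
KEAP1: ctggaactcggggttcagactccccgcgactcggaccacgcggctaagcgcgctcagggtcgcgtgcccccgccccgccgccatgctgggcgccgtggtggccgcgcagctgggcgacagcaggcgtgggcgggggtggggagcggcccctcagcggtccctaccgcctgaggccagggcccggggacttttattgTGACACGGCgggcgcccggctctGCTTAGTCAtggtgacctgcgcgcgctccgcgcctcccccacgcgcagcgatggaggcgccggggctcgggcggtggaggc
TXNRD1: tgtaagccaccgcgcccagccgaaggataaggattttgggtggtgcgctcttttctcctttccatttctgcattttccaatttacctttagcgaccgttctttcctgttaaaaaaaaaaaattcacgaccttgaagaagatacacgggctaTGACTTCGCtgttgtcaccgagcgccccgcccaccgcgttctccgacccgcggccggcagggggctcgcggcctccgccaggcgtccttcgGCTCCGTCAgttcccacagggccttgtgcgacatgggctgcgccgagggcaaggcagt
The GCLM match and the KEAP1 match nearer to the start have the same letters, GCTTAGTCA, which is the core read on the opposite strand, and begin 34 and 31 bases before their starts. Letters of the core were thus present at 1 start of the repressor of NRF2 as well as at targets. The other KEAP1 window and the windows of NFE2L2, GCLC, NQO1 and SRXN1 did not hold them. Sequence outside the windows was not searched, so a gene without a match may hold the core elsewhere. HMOX1 and SLC7A11 had no window.

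The first comparison asked whether the antioxidant genes follow the cell cycle, the axis along which the cells were sorted. No difference between fractions was called for any of the 8 genes tested, and SRXN1 fell just under the minimum mean of 1 TPM. Mean levels of the 9 genes differed between their highest and lowest fraction by 1.21-fold (GCLC) to 1.67-fold (HMOX1, with SRXN1 also at 1.67-fold), and the 2 libraries of a fraction often differed by as much.

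NFE2L2, which encodes NRF2 itself, measured 10.1, 6.22, 6.40, 7.35, 7.55 and 6.67 TPM from G1 through S1 to S4 to G2 in replicate 2. In replicate 3 the same fractions gave 9.39, 8.10, 10.7, 8.62, 11.1 and 12.2 TPM. In these TPM G1 was the highest fraction in replicate 2 and G2 the highest in replicate 3. After rescaling over protein-coding genes, S4 (67.3) was above G1 (64.9) in replicate 2 and S2 (83.1) above G2 (79.0) in replicate 3. G2 against G1 came to -0.09 log2 units (95% interval -0.87 to 0.68). KEAP1, the adaptor that holds NRF2, measured 11.6, 10.2, 12.7, 11.8, 10.1 and 9.84 TPM in replicate 2. Its replicate 3 libraries gave 11.2, 9.28, 12.3, 12.9, 13.5 and 14.8 TPM, with G2 lowest in one replicate number and highest in the other. With the same rescaling, G1 was its lowest fraction in replicate 2 (74.8) and S3 its highest in replicate 3 (113). The difference of KEAP1 between G2 and G1 was 0.08 log2 units (-0.51 to 0.66).

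Among the genes for glutathione, GCLC encodes the catalytic subunit of glutamate-cysteine ligase, the rate-limiting enzyme of its synthesis. It measured 10.7, 7.18, 6.14, 8.00, 7.09 and 6.34 TPM in replicate 2 and 8.63, 9.27, 9.76, 10.1, 10.0 and 11.7 TPM in replicate 3. G1 was its highest fraction in replicate 2 and its lowest in replicate 3. GCLM, the modifier subunit of the same enzyme, measured 3.07, 2.53, 2.45, 2.02, 2.23 and 2.12 TPM in replicate 2 and 4.19, 3.70, 3.92, 3.40, 3.30 and 4.30 TPM in replicate 3. In these TPM S3 and S4 were its lowest fractions in replicate 3 and S3 in replicate 2. After rescaling the lowest were S4 (24.3) and G2 (27.8) in replicate 3 and S3 (15.6) in replicate 2. The difference of GCLM between S (the mean of S1 to S4) and G1 was -0.24 log2 units (-0.89 to 0.40). SLC7A11, the cystine importer that supplies cysteine for glutathione, measured 12.2, 8.02, 7.54, 10.7, 10.0 and 9.08 TPM in replicate 2. In replicate 3 it measured 3.33, 3.70, 4.27, 3.55, 4.03 and 5.26 TPM, so that every library of replicate 3 lay below every library of replicate 2. That gap left its fraction differences the least precise of the 8 genes: G2 against G1 gave 0.07 log2 units with an interval from -1.40 to 1.55.

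TXNRD1, the cytosolic thioredoxin reductase, measured 21.5, 15.1, 14.0, 15.9, 14.6 and 14.3 TPM in replicate 2 and 19.0, 18.0, 18.8, 17.2, 23.4 and 25.1 TPM in replicate 3. Its course in TPM resembled that of NFE2L2, with the G1 library highest in replicate 2 and the G2 library highest in replicate 3. After rescaling over protein-coding genes, G1 (139) stayed highest in replicate 2, but S4 (172) was above G2 (162) in replicate 3. SRXN1, the sulfiredoxin that repairs overoxidized peroxiredoxins, measured 1.33, 0.835, 0.670, 1.05, 0.917 and 0.637 TPM in replicate 2. Its replicate 3 libraries gave 1.37, 0.781, 0.959, 0.772, 0.997 and 1.36 TPM, and these values rest on only 13 to 43 reads per library.

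NQO1, the quinone reductase often used as a readout of NRF2 activity, measured 36.9, 33.2, 44.2, 38.3, 34.8 and 32.1 TPM in replicate 2. In replicate 3 the fractions gave 30.8, 35.6, 48.1, 37.6, 41.9 and 41.8 TPM. S2 was the highest fraction of NQO1 in both replicate numbers, yet S against G1 came to 0.20 log2 units (-0.24 to 0.65), which was not called. HMOX1, the inducible heme oxygenase, measured 2.48, 1.95, 3.16, 1.61, 1.51 and 1.66 TPM in replicate 2 and 5.73, 4.42, 4.02, 3.65, 3.40 and 4.61 TPM in replicate 3. S4 was its lowest fraction in both, although after rescaling S3 (12.4) was below S4 (13.4) in replicate 2. The slope of HMOX1 over S1 to S4 was -0.12 log2 units per fraction (-0.49 to 0.25).

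Across all 17022 genes tested with limma and Benjamini-Hochberg adjustment at 0.05, any difference among fractions was called for 3 genes (0.0176%), S against G1 for 0 (0.00%), G2 against G1 for 1 (0.00587%) and the slope over S1 to S4 for 0 (0.00%). At an unadjusted p below 0.05 these comparisons held 470, 891, 469 and 500 genes. The 0 of 8 members called in each of the 4 comparisons stands beside those shares. The median difference of the 8 members was -0.21 for S against G1 and -0.09 for G2 against G1, beside medians of -0.20 and -0.08 over all genes. With limma's voom on recovered reads, 0 genes were called in each of the 4 comparisons. None of the tested genes of the 6 wider antioxidant lists was called in these comparisons either. Of 20 G2/M genes, whose RNA is known to rise toward mitosis, all 20 had a positive difference in G2 against G1, with a median of 1.63 log2 units, and 0 of them were called. Changes were also simulated between G2 and G1 in 200 of 16959 genes, with noise drawn separately for each library. The G2 against G1 test, which has no replicate term, recovered 0% of those by 1 log2 unit and 41% of those by 2. In TPM, GCLM lay below the G1 library of its own replicate number in all 4 S libraries of both. This did not hold after rescaling over protein-coding genes, where S1 (21.7) and S4 (19.9) were above G1 (19.8) in replicate 2. SRXN1 lay below G1 in all 4 S libraries of both numbers with and without rescaling, on 13 to 43 reads per library. All 4 S libraries of a replicate number share 1 G1 library, and the share of all genes with this pattern was not counted. The median of all genes for S minus G1 was -0.34 in replicate 2 and -0.06 in replicate 3. With a replicate block, S against G1 was not called for GCLM either (limma adjusted p = 0.489).

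The second comparison set the 2 replicate numbers against each other with a term for the fraction. What a replicate number marks is not given in the labels. Here 3 of the 8 genes tested were called: HMOX1 and GCLM were higher in replicate 3, and SLC7A11 was lower. Over all genes 4252 of 17022 were called (25.0%), 18.0% higher and 6.99% lower, and the 3 of 8 stand beside that share. Libraries of the 2 numbers did not overlap at all for 7.14% of genes with replicate 3 above and 3.85% with replicate 3 below.

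HMOX1 ranged from 1.51 to 3.16 TPM in replicate 2 and from 3.40 to 5.73 TPM in replicate 3. It was higher in 6 of 6 fractions, with a fitted difference of 0.80 ± 0.14 log2 units (SE; limma adjusted p = 0.00541). Its lowest library held 21 reads. GCLM ranged from 2.02 to 3.07 TPM against 3.30 to 4.30 TPM and was likewise higher in 6 of 6 fractions, by 0.50 ± 0.12 log2 units (limma adjusted p = 0.0169). The GCLM call did not survive every setting: without a filter on low values its limma adjusted p was 0.0673, and without S2 replicate 2 or S2 replicate 3 it was 0.0535 or 0.0542.

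SLC7A11 went the other way. It ranged from 7.54 to 12.2 TPM in replicate 2 and from 3.33 to 5.26 TPM in replicate 3, lower in 6 of 6 fractions, and fell by 1.07 ± 0.15 log2 units (SE; limma adjusted p = 0.00229). The cystine importer and the 2 targets HMOX1 and GCLM thus differed between the same libraries in opposite directions. For comparison, replicate 3 was above replicate 2 in 6 of 6 fractions for 19.8% of all genes and below it for 7.57%.

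The remaining genes leaned upward without a call. NFE2L2 was higher in 5 of 6 fractions by 0.40 ± 0.14 log2 units (limma adjusted p = 0.0625), GCLC in 5 of 6 by 0.36 ± 0.15 (0.0992) and TXNRD1 in 5 of 6 by 0.33 ± 0.14 (0.118). In each of these 3 genes G1 was the fraction in which replicate 3 was not higher. On rescaled TPM, G1 was higher in replicate 3 for NFE2L2 (74.4 against 64.9) and TXNRD1 (150 against 139). It was not for GCLC (68.3 against 68.7). NFE2L2, GCLC and TXNRD1 did pass the threshold, with replicate 3 higher, once TPM was rescaled over protein-coding genes (limma adjusted p = 0.00231, 0.00666 and 0.00219). In that setting 46.0% of all 13492 genes were called, 4549 of them higher. KEAP1 (0.14 ± 0.12) was higher in 3 of 6 fractions and NQO1 (0.09 ± 0.11) in 4 of 6, and neither was called. Scaling by median ratios turned KEAP1 to -0.03 and NQO1 to -0.08, so no direction can be given for them. The median over the 8 members was 0.35 log2 units and over all genes 0.16, which median-ratio scaling moved to 0.02.

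**Figure D2:**
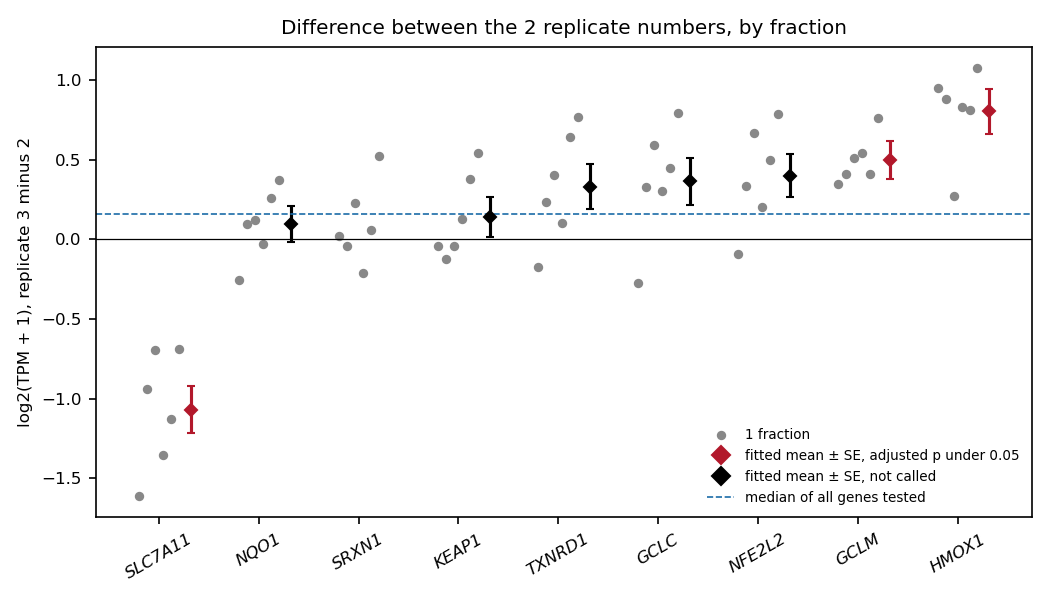
Difference in log2(TPM + 1) between replicates 3 and 2 for each of the 9 genes, ordered by mean, with 1 grey point for each of the 6 fractions and a diamond for the fitted mean with its SE (red where the adjusted p was under 0.05; SRXN1 was not tested). SLC7A11 lies below 0 in all 6 fractions, HMOX1 and GCLM above 0 in all 6, and the dashed line marks the median of 0.16 over all genes tested.

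Other properties of the libraries moved with the replicate number. Mitochondrial genes took 9.98% to 15.7% of the reads in replicate 2 and 2.07% to 11.1% in replicate 3. The summed TPM of the 16 hepatocyte markers was 9030 to 13588 in replicate 2 and 4643 to 7151 in replicate 3. Of 15 tested markers 11 were called lower and 0 higher, beside 6.99% and 18.0% of all genes. A positive difference was seen in 2 of the 15, among them FGG at 0.26 ± 0.09 log2 units, higher in 6 of 6 fractions and not called. ALB, the main plasma protein, fell by 1.06 ± 0.10 log2 units and AFP, the fetal albumin relative, by 1.02 ± 0.08. The 11 leukocyte markers summed to 339 to 446 TPM in replicate 2 and 175 to 212 TPM in replicate 3, nearly all of it LYZ. The 10 fibroblast and stellate markers summed to 3.51 to 7.93 against 3.24 to 4.83 TPM and the 10 endothelial ones to 1.43 to 3.91 against 0.980 to 3.51 TPM. The 20 G1/S genes summed to 286 to 412 TPM in replicate 2 and 472 to 811 TPM in replicate 3, with 16 of 20 called higher, beside the same 18.0%. The part of these differences in the values of HMOX1, GCLM and SLC7A11 was not tested. Fewer cells of a kind and less RNA per cell cannot be told apart in such libraries.

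The wider antioxidant lists moved in both directions between the replicate numbers, beside 18.0% of all genes called higher and 6.99% lower. Of the 25 tested enzymes and exporters for oxidants and xenobiotics, 10 were higher in replicate 3 and 0 lower, with a median of 0.29 log2 units. They included ALDH1A1, a retinal dehydrogenase, at 22.8 ± 3.90 TPM in replicate 2 and 61.3 ± 6.60 in replicate 3 (SD, n = 6 each; 1.39 log2 units), and the aldo-keto reductases AKR1C2 (1.17) and AKR1B10 (1.07). ALDH3A2, a fatty aldehyde dehydrogenase, was higher by 0.75. The most abundant member, the canalicular exporter ABCC2, was not called at 138 ± 15.9 against 169 ± 29.4 TPM, nor was the aldehyde reductase AKR1A1 at 37.7 ± 4.95 against 46.5 ± 6.60 TPM.

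Of 25 tested genes of glutathione synthesis and use, 7 were higher and 2 lower. The glutathione transferases GSTA1 (1.22 log2 units) and GSTA2 (0.86) and the cyclotransferase GGCT (0.82) were higher. The glutathione peroxidase GPX2, among the most abundant of the list, was also higher, at 27.4 ± 4.83 TPM in replicate 2 and 45.2 ± 7.10 in replicate 3 (0.70), while GPX3, the secreted glutathione peroxidase, fell by 0.77. Reads of GSTA1, GSTA2 and AKR1C2 are uncertain, since each has close relatives among which they could have been divided. SLC3A2, the partner chain with which SLC7A11 forms the cystine transporter, was not called: it measured 28.4 ± 2.85 TPM in replicate 2 and 30.9 ± 3.48 in replicate 3 (0.12 log2 units). GPX4, which uses glutathione to remove lipid peroxides, was at 50.5 ± 7.47 and 38.1 ± 5.93 TPM and was not called.

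Of 11 tested enzymes that supply NADPH, 4 were higher and 0 lower: MTHFD1 (0.89 log2 units) and NNT (0.76), then the isocitrate dehydrogenase IDH1 (0.75) and the pentose phosphate enzyme PGD (0.40). TKT, a transketolase, was not called at 14.4 ± 2.07 and 16.3 ± 3.00 TPM. In the thioredoxin and peroxiredoxin system 1 of 17 was higher, the sestrin SESN1 (0.79), and 1 lower, PRDX4, which fell by 0.45. PRDX1, TXN and PRDX5, the most abundant of that list, were not called. Of 14 genes for heme and iron 3 were higher, namely the plasma scavengers HP (0.83) and HPX (0.58) and the iron exporter SLC40A1 (0.75), and 1 was lower, the ferritin receptor NCOA4, which fell by 0.32. The ferritin chains FTL and FTH1 were not called.

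Among 17 tested partners and regulators of NRF2, 1 was higher and 2 lower, with a median of -0.02. GSK3B, a kinase that marks NRF2 for a second route of destruction, was 0.56 log2 units higher. MAFF, a small MAF partner, fell by 0.83 from 4.21 ± 1.09 to 1.94 ± 0.665 TPM, and NFE2L1, the related factor that governs proteasome genes, fell by 0.76 from 41.9 ± 7.35 to 24.2 ± 4.14 TPM. ATF4, an amino-acid stress factor that also drives SLC7A11, was not called: it measured 114 ± 16.9 TPM in replicate 2 and 113 ± 18.4 in replicate 3, a difference of -0.02. EP300, a coactivator, was not called either. With median-ratio scaling the calls, higher and lower, were 2 and 7 for these partners, 7 and 7 for glutathione genes, 9 and 3 for oxidant and xenobiotic genes, 4 and 2 for NADPH, 1 and 5 for thioredoxin and 2 and 3 for heme and iron.

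**Figure D3:**
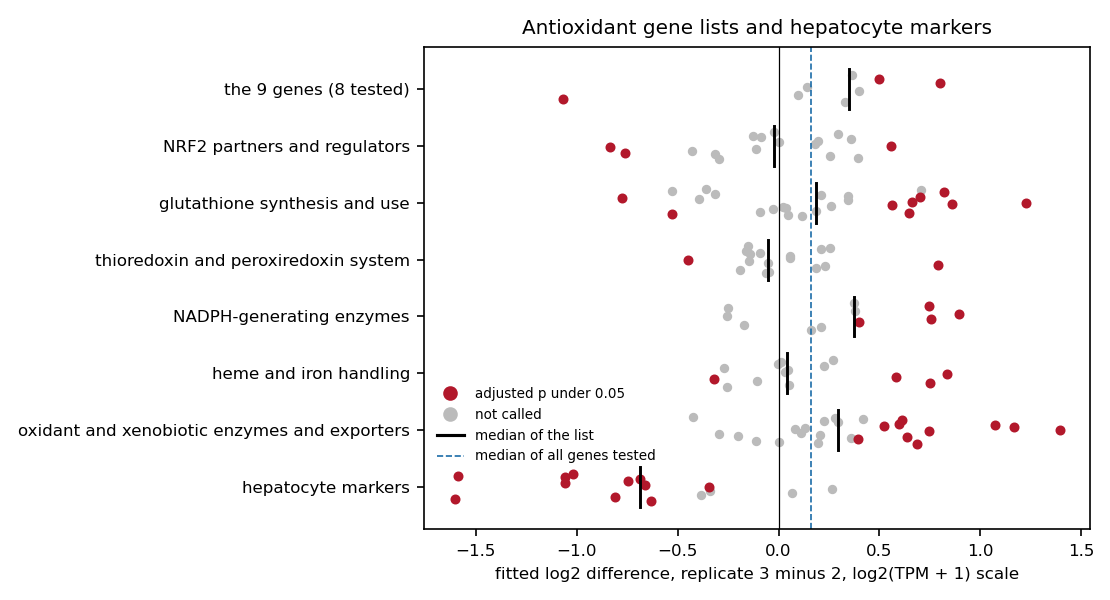
Fitted difference between replicates 3 and 2 on the log2(TPM + 1) scale, 1 point for each tested gene of the 6 antioxidant lists, of the 9 genes themselves and of the hepatocyte markers, red where the adjusted p was under 0.05, with a black bar at each list's median and a dashed line at the median of all genes. The oxidant and xenobiotic enzymes have 10 red points above 0 and none below, and the hepatocyte markers 11 below and none above.

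How the 9 genes vary together depended on whether the replicate number was kept in. As measured, r mixes the step between replicates 2 and 3 with the variation inside each. Over the 12 sorted libraries, NFE2L2 and TXNRD1 had a Pearson r of 0.94, GCLC and TXNRD1 0.91, and HMOX1 and GCLM 0.93. SLC7A11 ran against several of the others, with r of -0.85 to HMOX1, -0.79 to GCLM and -0.46 to NFE2L2, but only -0.15 to NQO1 and -0.04 to SRXN1. Once the mean of each replicate number was removed, SLC7A11 joined NFE2L2 (0.87), GCLC (0.84) and TXNRD1 (0.78) but not HMOX1 (-0.24). It was then at 0.64 with SRXN1 and 0.30 with GCLM. NFE2L2 and TXNRD1 stayed together at 0.89 and HMOX1 and GCLM at 0.70, while HMOX1 and NFE2L2, at 0.62 as measured, were then close to 0. These values describe 12 libraries, and values scaled to a common total in each library are tied to each other.

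**Figure D4:**
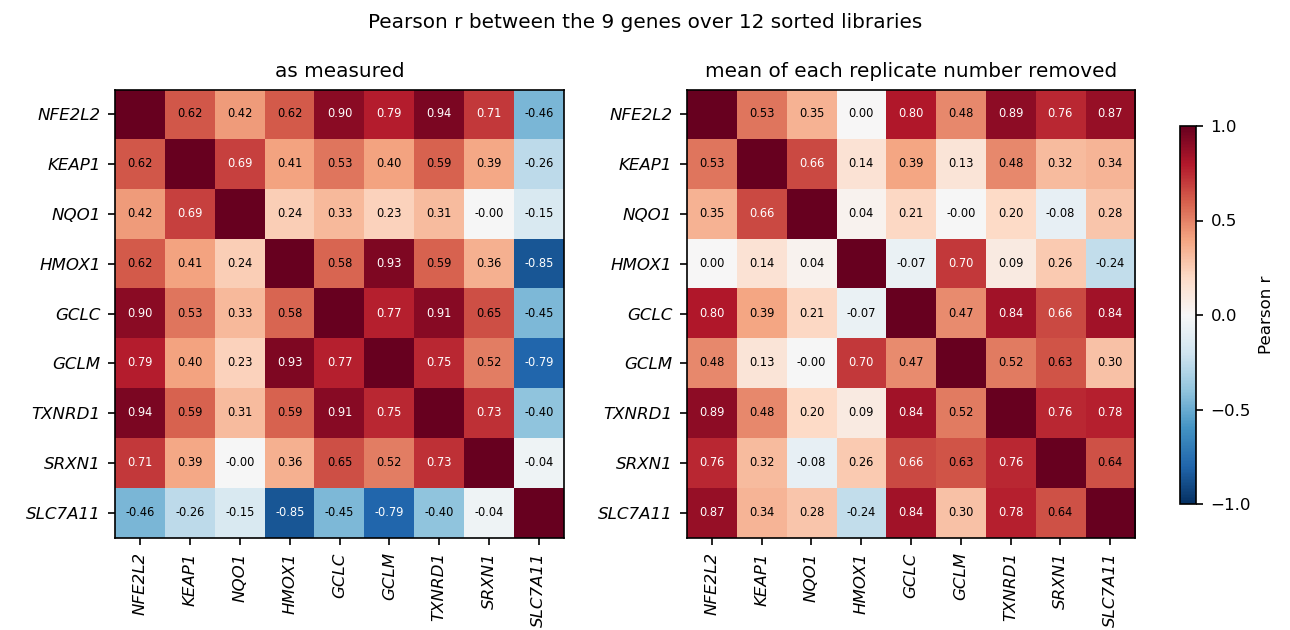
Pearson r between each pair of the 9 genes over the 12 sorted libraries on the log2(TPM + 1) scale, as measured on the left and after the mean of each replicate number was removed on the right, from -1 in blue to 1 in red. The row of SLC7A11, blue to near white on the left, turns red on the right except for HMOX1, most strongly for NFE2L2, GCLC and TXNRD1. HMOX1 stays paired with GCLM in both.

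With the same removal, the genes most like each member were searched among 6407 protein-coding genes with a mean of at least 5 TPM. The closest to NFE2L2 were VEZF1 and RAD23B (r = 0.98 each, n = 12 here and below), and the closest to TXNRD1 were ZNF800 and GDPD5 (0.98 each). GCLC was closest to ZNF131 (0.94) and LARP1B (0.93), SLC7A11 to CCNK and DNAJC10 (0.95 each) and SRXN1 to CAPN7 (0.94) and UHRF2 (0.93). KEAP1 was closest to GGA1 (0.97) and DBN1 (0.95), and NQO1 to C14orf93 and WDR90 (0.93 each). HMOX1 was closest to the apolipoprotein gene APOA1 (0.91) and to CADM4 (0.90), and GCLM to TYW3 and HGFAC (0.95 each). None of these genes is among the 9 genes or the lists of the antioxidant system.

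The third comparison set the 12 sorted libraries against the 3 bulk libraries, after TPM had been rescaled to a sum of 1e+06 over protein-coding genes. Kit, RNA preparation and sorting all differ between these groups and cannot be told apart. NQO1 and HMOX1 were far lower in the sorted libraries, TXNRD1 and KEAP1 were lower by less, and SRXN1 was higher. Of all 13041 protein-coding genes tested, 71.6% were called, 55.1% higher and 16.5% lower in sorted libraries, with a median of 0.79 log2 units. The 4 of 9 members called lower stand beside that 16.5%.

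NQO1 measured 238 to 372 rescaled TPM in the sorted libraries and 1671, 1673 and 1663 in bulk, a difference of -2.49 ± 0.09 log2 units (SE; limma adjusted p = 9.12e-10). HMOX1 measured 12.4 to 45.4 and 159, 139 and 151 in bulk (-2.65 ± 0.37; limma adjusted p = 5.22e-05), with both replicate numbers below bulk. TXNRD1 measured 106 to 172 and 238, 246 and 225 in bulk (-0.75 ± 0.14; limma adjusted p = 0.000423). No sorted library overlapped bulk for these 3 genes, as was so for 14.6% of all genes in this direction. KEAP1 did overlap, at 74.8 to 113 and 119, 100 and 120 in bulk, and its difference of -0.30 ± 0.11 (limma adjusted p = 0.0238) was lost without bulk replicate 1 (limma adjusted p = 0.114) or 3 (0.120) and with sorted replicate 3 alone (0.0726).

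SRXN1 was listed at 5.07 to 10.8 rescaled TPM in sorted libraries and at 0.168, 0.0931 and 0 in bulk, and all 12 sorted libraries lay above bulk, as was so for 46.5% of all genes. The fitted difference was 2.96 ± 0.20. That fit depends on the added 1, since the bulk value rests on 3 reads in all 3 libraries together (95% Poisson interval 0.619 to 8.77) against 239 reads in the 12 sorted ones (210 to 271). Per protein-coding read the ratio was 69.3 with a counting interval from 23.4 to 338. SQSTM1, a KEAP1-binding autophagy receptor, and HMOX2, the constitutive heme oxygenase, were also low in bulk, at 2.16 and 0.615 rescaled TPM against 19.2 and 8.35 in sorted libraries. How reads on overlapping genes were counted is not given in the labels or notes, and RefSeq places another gene over SRXN1, so its level in bulk is uncertain. RefSeq also has antisense genes at GCLC, SLC7A11, NQO1 and TXNRD1, whose reads could be told apart only if the counting used strand.

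The other 4 genes were not called against bulk: NFE2L2 (-0.34 ± 0.17; 48.3 to 83.1 in sorted and 80.1 to 88.3 in bulk), GCLC (-0.27 ± 0.17), GCLM (-0.29 ± 0.24) and SLC7A11 (-0.41 ± 0.43). Replicate numbers mattered most for SLC7A11, whose replicate 2 libraries held 57.0 to 89.1 rescaled TPM, its replicate 3 libraries 26.4 to 34.1 and bulk 59.8 to 71.5. With sorted replicate 2 alone the difference was 0.21 (limma adjusted p = 0.0773) and with replicate 3 alone -1.03 (0.00145), a pair of fits added after the data had been seen. GCLM gave -0.60 (0.00703) and 0.02 (0.815) in the same fits, so no difference from bulk was called for its replicate 3 libraries. NFE2L2 gave -0.55 (0.00189) and -0.13 (0.0690), and GCLC -0.46 (0.00502) and -0.08 (0.274). With voom on recovered reads NFE2L2, GCLC and GCLM were called lower (limma adjusted p = 0.00194, 0.00296 and 0.0120). NFE2L2 was also called lower without S2 replicate 3 (limma adjusted p = 0.0266). HMOX1 remained below bulk with sorted replicate 2 alone and with replicate 3 alone, at -3.16 and -2.14.

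**Figure D5:**
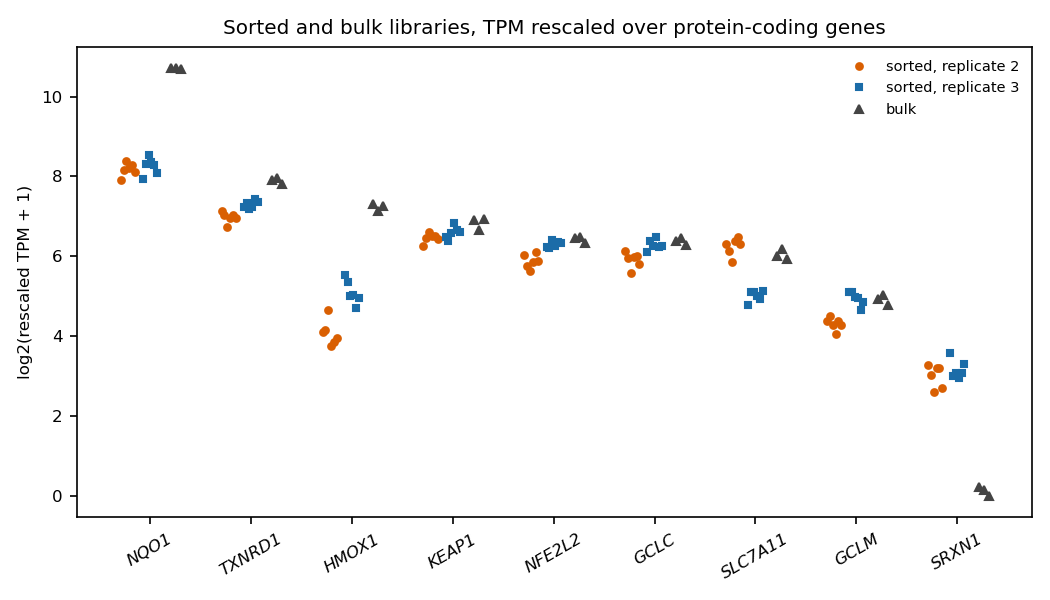
Level of each of the 9 genes as log2(rescaled TPM + 1), with TPM rescaled over protein-coding genes, in sorted replicate 2 (circles), sorted replicate 3 (squares) and bulk (triangles), ordered by the bulk mean of deposited TPM. NQO1 and HMOX1 show the widest gaps below bulk, SRXN1 lies above bulk, and SLC7A11 has bulk between or near its replicate 2 libraries with replicate 3 below.

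The scaling decides how many genes count as lower. With median-ratio scaling the calls over all genes were 3614 higher and 4173 lower, beside 7190 and 2147 in the values above, and the median of all genes was -0.07. The same scaling gave -3.22 for NQO1, -3.14 for HMOX1, -1.47 for TXNRD1 and -1.01 for KEAP1, and 7 members were called lower. With TPM as deposited all 8 genes tested were called lower, from -2.54 (GCLM) to -5.06 (NQO1), against a median of -0.99 over all genes, and 80.9% of all 17174 genes were called in that setting, 9930 of them lower. NQO1 and HMOX1 thus lay further below bulk than the median gene under each of these scalings.

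The wider lists stand beside 55.1% of all genes called higher and 16.5% lower in the sorted libraries, with a median of 0.79 log2 units. Of the thioredoxin system, 12 of 19 genes were lower in the sorted libraries and 3 higher, with a median of -1.13 log2 units. PRDX3 (-2.73) and PRDX6 (-2.38), which reduce peroxides, TXN (-1.88) itself and the glutaredoxin GLRX5 (-1.84) were among them. NADPH-supplying enzymes had 8 of 11 lower and 2 higher (median -0.92), among them PGD (-2.47), MTHFD2 (-1.57), TKT (-1.28) and TALDO1 (-1.13). Heme and iron genes had 8 of 14 lower and 3 higher (median -0.52), with FTL at -3.03 and SLC40A1 at -2.07 but HPX at 3.31. Of 25 oxidant and xenobiotic genes 11 were lower and 10 higher (median 0.17), of 27 glutathione genes 8 and 12 (median 0.39) and of 17 partners and regulators 4 and 7 (median 0.45). Each of these list medians lay below the 0.79 of all genes. Higher among these were TRIM16 (2.38), the exporter ABCC1 (2.31), NQO2 (1.54), the cystathionine synthase CBS (2.50), the glutathione transferase GSTZ1 (2.33), SQSTM1 (2.56) and GSK3B (0.86). Lower were AKR1C3 (-1.76), GPX2 (-2.45), the glutathione-degrading CHAC1 (-3.15), FBXW11 (-1.15) and ATF4 (-0.85). With median-ratio scaling the calls, lower and higher, were 14 and 2 for thioredoxin, 9 and 0 for NADPH, 10 and 3 for heme and iron, 14 and 8 for oxidant and xenobiotic genes, 10 and 5 for glutathione and 8 and 1 for partners and regulators.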

How the data were processed

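RNA libraries of HepG2 cells were analysed, 12 from sorted fractions and 3 from bulk, and the 18 samples of Repli-seq were left out (not analysed here). According to the submitters' processing notes, the tools were HISAT2, BWA, Trimmomatic, cutadapt and SAMtools on hg38, without further detail. Not given in the sources used here are program and annotation behind the values, and whether strand was used. The authors deposited log2 values, 1 for each of 78932 gene identifiers. Back-transformed as log2(TPM + 1), they summed to 1000000 in every library. The planned tests, written for TPM, did not change. A symbol was found for 61481 identifiers.

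The steps between values gave read counts for all 50310 genes detected in at least 3 libraries. Of the gene lengths found from low values, 99.2% were whole within 0.01 base. In simulated data, 99.3% of 46915 genes had all reads recovered. Intervals from counts cover counting error only.

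Labels gave the groups and replicate numbers. Differences in log2(TPM + 1) were tested by limma with an intensity trend, over genes with a mean of at least 1 TPM. It was two-sided, with Benjamini-Hochberg adjustment over all genes tested at 0.05. Fraction comparisons had no replicate term, and the comparison of replicate numbers had a fraction term. Bulk was compared on TPM rescaled over protein-coding genes. With changes simulated between replicate numbers in 200 of 16959 genes, the test recovered 55% of those by 1 log2 unit and 0% of those by 0.5. So few changed genes make the adjustment stricter than in the data, where 25.0% of genes were called. These recovered shares therefore do not carry over to the data. Alternatives changed the pseudocount (0.1), filter (mean of 5 TPM, or none), scaling, trend, weights, replicate term and libraries.

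The members and lists were chosen with earlier results of these data known. Named in each antioxidant list are the 3 members with the highest mean TPM and called members, at most 4 per comparison by size. Like genes are the 2 with the highest Pearson r per member. ALB, AFP, FGG, LYZ, PTPRC, CD3E and APOB were named from the marker lists after their values were seen. The software was R 4.3.3 with limma 3.58.1, and Python 3.11.15 with pandas 2.3.3, SciPy 1.17.1 and matplotlib 3.10.9.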

Additional observations from a re-analysis of the deposited data

Results flagged for a closer look

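On the log2(TPM + 1) scale GCLC and SLC7A11 moved in opposite directions from G1 to S phase in the 2 replicate numbers. For GCLC, S1 to S4 averaged -0.53 log2 units relative to G1 in replicate 2, with all 4 S libraries below G1, and 0.16 in replicate 3, with all 4 above it. For SLC7A11 the averages were -0.41 in replicate 2, again with 4 of 4 below, and 0.17 in replicate 3, with 4 of 4 above. On TPM rescaled over protein-coding genes the SLC7A11 pattern was lost. In replicate 2, S3 (82.1) and S4 (89.1) were then above G1 (78.7), with S1 (68.6) and S2 (57.0) below it. GCLC kept its pattern after rescaling. The difference between replicate numbers was not tested, since each number has 1 library per fraction, and all 4 comparisons of a number share its only G1 library. Of 17022 genes, 692 (4.07%) showed this pattern on the log2(TPM + 1) scale and 140 the opposite one. The median of all genes was -0.34 in replicate 2 and -0.06 in replicate 3.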

How the results depend on the processing

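None of the 8 tested members was called between fractions under any alternative, and the calls of HMOX1 and SLC7A11 between replicate numbers kept their direction and their side of the threshold in each alternative run, with HMOX1 too low for the filter at a mean of 5 TPM. Of the members' log2 differences under alternatives, 792 kept direction and side, 29 gained a call, 6 lost one and 43 changed sign. With median-ratio scaling, S against G1 became 0.0084 for GCLC and 0.073 for SLC7A11, the slope -0.014 for GCLC and -0.033 for NQO1, and replicate 3 against 2 -0.029 for KEAP1 and -0.084 for NQO1. Protein-coding rescaling gave 0.076 for SLC7A11 in S against G1 and -0.0060 for the slope of NQO1, and voom 0.032 for SLC7A11. Against bulk, replicate 3 alone gave 0.022 for GCLM and replicate 2 alone 0.21 for SLC7A11; both settings were chosen after seeing the data. The cause of these shifts was not tested.

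Genes called in G2 against G1 were 0 with a mean of 5 TPM, without filter, with protein-coding rescaling and with voom, and 106 when only G1 and G2 were fitted. In S against G1 they were 2 with median ratios, 3 without filter, 1 without trend and 4 with a pseudocount of 0.1, and in the slope 1 with that pseudocount. Any difference gave 0 with a mean of 5 TPM, protein-coding rescaling and voom. Replicate 3 against 2 gave 1907 without filter and 7764 with voom, and with median ratios 2821 higher and 2809 lower beside 3062 and 1190. Leaving out 1 library gave 0 to 2 genes for each of any difference, S against G1 and G2 against G1, 0 to 0 for the slope, 2458 to 4260 between replicate numbers and 8126 to 9433 against bulk.

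Leaving out 1 library changed signs among uncalled fraction differences. G2 against G1 ran from -0.53 to 0.26 for GCLC, -0.56 to 0.20 for GCLM, -0.86 to 0.21 for HMOX1, -0.19 to 0.35 for KEAP1, -0.48 to 0.30 for NFE2L2, -0.069 to 0.30 for NQO1, -0.73 to 0.88 for SLC7A11 and -0.47 to 0.30 for TXNRD1. S against G1 ran from -0.82 to 0.13 for HMOX1, -0.035 to 0.059 for KEAP1 and -0.92 to 0.69 for SLC7A11. The slope ran from -0.035 to 0.099 for GCLC, -0.12 to 0.0067 for GCLM, -0.25 to 0.013 for HMOX1, -0.022 to 0.056 for NQO1, -0.10 to 0.24 for SLC7A11 and -0.047 to 0.15 for TXNRD1. A fraction left with 1 library was assumed to vary like the others.

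With the replicate number as a block, 3 genes were called for any difference, 0 for S against G1, 1 for G2 against G1 and 0 for the slope, and no tested member's call changed. At an unadjusted p below 0.05 there were 2132 genes for S against G1 with the block and 891 without, and 1202 and 470 for any difference. Differences between replicates correlated across genes between fractions at 0.31 to 0.38 (15 pairs). The labels name no shared culture, so the main fraction fits did not take the numbers as pairing the samples. Intervals from those fits therefore keep the step between replicate numbers in their spread, and intervals with the block are not given here.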
